A study of Mus musculus with 5 samples.

Results

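Genes that tell apart the subsets of mouse monocytes were followed in leukocytes of the lung: 6 genes associated with classical monocytes (Cd14, Ly6c2, F13a1, Vcan, Fn1 and Lyz2) and 4 associated with nonclassical monocytes (Nr4a1, Ace, Spn and Pou2f2). They were chosen by name, with earlier results of these data known. Each of the 10 had a row among the 14462 rows of the gene table. RNA was sequenced from lung cells sorted for CD45, the surface phosphatase of leukocytes, in mice bearing tumours that the labels write as MC38/MC38, where MC38 is a line of cultured mouse colon carcinoma cells. The ctrl group held 3 libraries and the IR group, from the irradiated arm, 2; lungs were taken 3 days after irradiation. Strain, age, sex and radiation dose are not given in the labels, nor is it said whether libraries came from separate mice, so the p-values measure the spread between these libraries, which may be technical. The series title names immune suppression by radiotherapy and metastasis, and the comparison of IR with ctrl asks how lung leukocytes differed after the tumour had been irradiated.

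Monocytes leave the bone marrow as classical, Ly6C-high cells, which enter inflamed tissue and become macrophages or dendritic cells. Some convert in the circulation to nonclassical, Ly6C-low cells, which patrol the lining of small vessels and depend on the nuclear receptor Nr4a1. The lung holds many of both in its capillaries, so both are expected in a CD45 sort. None of the 10 genes belongs to monocytes alone: neutrophils and macrophages transcribe Cd14 and Lyz2, T cells Spn, B cells Pou2f2, vessel endothelium Ace, and many activated cells Nr4a1. In a bulk library fewer cells of a type and less RNA per cell cannot be told apart.

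The authors deposited the values as read counts, but they carry decimals and have similar medians, and they are taken here as counts scaled between libraries by a method that is not stated. Their totals ran from 7232126 to 8414753 per library; the number of reads behind them is unknown. Ptprc, which encodes CD45, lay between 15543 and 15842 in ctrl and at 17369 and 27246.5 in IR. Csf1r, the growth factor receptor carried by all monocytes and macrophages, lay between 2565 and 3419 in ctrl and between 2967 and 3183 in IR. Markers of other leukocytes were present in every library, and fibroblast markers summed to at most 64.6. Markers of cells that do not carry CD45 were present too: the 10 lung epithelial markers summed to 24583.5, 26193 and 22361 in ctrl replicates 1 to 3 and to 113255 and 54497 in IR replicates 1 and 2. Most of that sum was Scgb1a1, a secreted protein of airway club cells, at 18790 to 23115 in ctrl and 103972 and 50989 in IR. Of the 10 markers, 7 had positive and 3 negative log2 fold changes. Epcam was among the 3, at 133 to 185 in ctrl and 45.8 and 74.8 in IR. IR replicate 2 held an extreme value most often: it was the highest library for 25.3% of all genes and the lowest for 29.3%.

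Both Ly6c2 and Lyz2 have a near-identical neighbouring gene, and the coding sequences show in part how far reads could be told apart. Only coding bases were compared, while the annotated exons hold 868 bases for Ly6c2 and 1316 for Lyz2. The coding sequences of Ly6c2 (GRCm38, chromosome 15, 75108158 to 75111970, minus strand) and Ly6c1 (75044018 to 75048830) are 396 bases long and differ at 9 of them, an identity of 97.7%; 46.7% of all stretches of 50 bases hold no difference. Lyz2 (chromosome 10, 117277331 to 117282321, minus strand) and Lyz1 (117287797 to 117292868) differ at 22 of 447 coding bases (95.1% identity), and 20.1% of such stretches hold no difference. The stretch of 60 coding bases with the most differences is shown for each pair, from GENCODE transcripts, at coding bases 6 to 65 for Ly6c and 61 to 120 for Lyz, with differing bases in capitals.
Ly6c2: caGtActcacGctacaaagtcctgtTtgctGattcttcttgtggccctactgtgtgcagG
Ly6c1: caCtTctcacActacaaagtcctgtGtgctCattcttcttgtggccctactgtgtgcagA
Lyz2: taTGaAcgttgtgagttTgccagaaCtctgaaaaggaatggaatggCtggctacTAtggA
Lyz1: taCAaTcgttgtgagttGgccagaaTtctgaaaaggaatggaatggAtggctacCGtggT
In the table nearly all of each pair's signal was on the member. Ly6c1 took 0% to 3.46% of the summed Ly6c1 and Ly6c2 values per library, and Lyz1 took 0.103% to 0.311% of the summed lysozyme values. How reads that match both genes were counted is not given in the sources used here, so the values of Ly6c2 and Lyz2 are uncertain to that extent.

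For Nr4a1 (GRCm38, chromosome 15, 101254269 to 101274795, plus strand), which cells induce within minutes of a stimulus, the 250 bases before the RefSeq start (GRCm38.p6, chr15:101266596-101266845, plus strand) are shown because they hold repeated letters of the cAMP response element. Capitals mark the half-site TGACG or its reverse CGTCA.
Nr4a1: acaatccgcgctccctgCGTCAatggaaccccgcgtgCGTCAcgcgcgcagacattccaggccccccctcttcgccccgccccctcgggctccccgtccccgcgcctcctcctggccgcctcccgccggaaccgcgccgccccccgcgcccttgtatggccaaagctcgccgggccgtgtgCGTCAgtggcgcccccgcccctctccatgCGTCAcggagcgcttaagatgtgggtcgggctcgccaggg
The half-site occurred 4 times, beginning 233, 213, 69 and 40 bases before the start. At least 1 half-site was present in 17.8% of all 32851 promoter windows of this length, and 4 or more in 0.137%. Among 11 windows of 8 member genes searched on both strands, the PU.1 letters GAGGAAGT occurred in both Ly6c2 windows, which overlap (2.44% of all windows). No window of Cd14 or Fn1 was searched. The C/EBP letters TTGCNNAA, the octamer ATTTGCAT, the AP-1 site TGANTCA and the NR4A response element AAAGGTCA occurred in 0 of these 11 windows, against 9.56%, 1.60%, 6.75% and 1.34% of all windows. Such matches describe letters, not bound sites, and none of the data here measure binding.

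Levels were compared between genes only per kilobase of annotated exon. Lyz2, the lysozyme of macrophages, monocytes and granulocytes, was the most abundant member, with 19254 ± 1541 scaled counts per kilobase in ctrl (SD, n = 3). Cd14 (3192 ± 812), Nr4a1 (2292 ± 316), Fn1 (1352 ± 284), Spn (942 ± 158), Ly6c2 (654 ± 139), F13a1 (433 ± 189), Ace (408 ± 108), Pou2f2 (76.0 ± 12.4) and Vcan (30.4 ± 21.4) followed, all per kilobase in ctrl. The ranges of the 3 ctrl libraries overlapped between the neighbours Cd14 and Nr4a1, Fn1 and Spn, Ly6c2 and F13a1, and F13a1 and Ace, and did not overlap between the other neighbours in this order.

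Of the 10 genes, Cd14 rose in IR, and the other 9 did not pass the test. Cd14 was 2.55-fold higher in IR (95% interval 1.83 to 3.55), while Ly6c2, the gene that gives classical monocytes their name in the mouse, was 1.07-fold (0.729 to 1.56) of ctrl. Among the 6 classical genes, 5 had a positive and 1 a negative log2 fold change, with a median of 0.36. Among the 4 nonclassical genes Nr4a1 had a positive and Ace, Spn and Pou2f2 negative log2 fold changes, with a median of -0.23. Over all 12777 genes tested the median was -0.05, and 46.8% were positive. Tests were made with limma on log2(scaled count + 1), with p adjusted over all genes tested, and called under 0.05. By that rule 1.50% of all genes were called, 1.14% higher and 0.360% lower in IR (146 and 46 genes; 143 and 116 when libraries were scaled to equal totals, which moved the median over all genes to -0.17). With 1 library left out, 18 genes were called higher and 1 lower (ctrl replicate 1 out), 22 and 1 (ctrl replicate 2), 90 and 5 (ctrl replicate 3), 447 and 559 (IR replicate 1) and 59 and 37 (IR replicate 2). At an unadjusted p under 0.05 stood Cd14 and Nr4a1 among the members, and 1912 of all 12777 genes. Both IR libraries lay above every ctrl library for 3 members (Cd14, Fn1 and Nr4a1) and below every one for 0, against 15.2% and 16.3% of all genes.

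**Figure D1:**
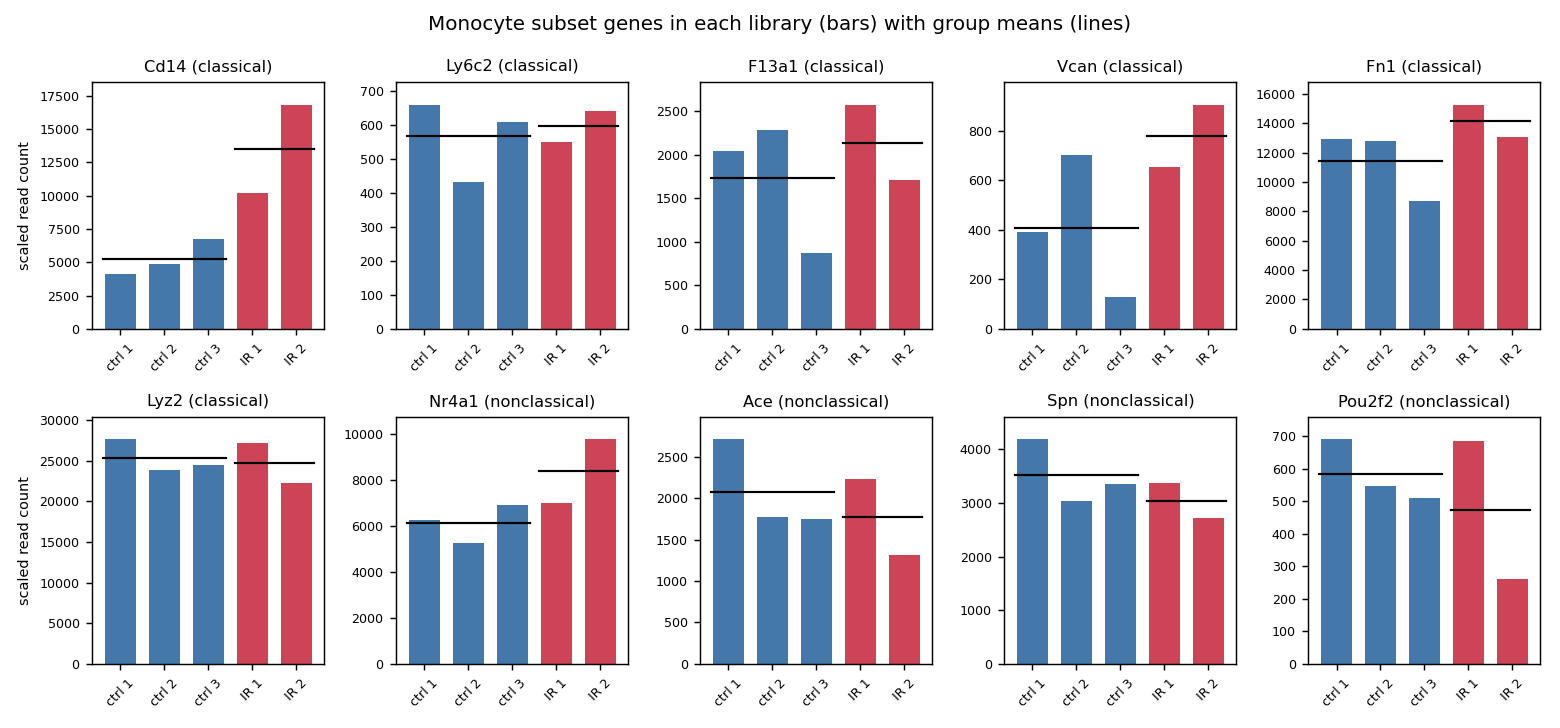
Scaled read counts (y axis, from 0) of the 10 genes in each of the 5 libraries; bars are libraries (blue ctrl, red IR) and lines group means. Both IR libraries exceed all ctrl libraries for Cd14, Fn1 and Nr4a1; for Fn1 the gap is 12903 against 13066 and for Nr4a1 6924 against 7003.

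Cd14 (chromosome 18, 36725067 to 36726798, minus strand) encodes the coreceptor that hands bacterial lipopolysaccharide to Tlr4. Its scaled counts were 4132, 4865 and 6717 in ctrl replicates 1 to 3, and 10186 and 16829 in IR replicates 1 and 2. IR replicate 2 was the highest library, IR replicate 1 also lay above every ctrl library, and ctrl replicate 3 was the highest of ctrl. The means were 5238 ± 1332 (SD, n = 3) and 13507 ± 4697 (SD, n = 2), and the log2 difference by limma was 1.35 ± 0.23 (SE; adjusted p = 0.00449). A larger log2 fold change was found for 7.02% of all genes tested. The limma call was lost without ctrl replicate 1 (adjusted p = 0.0851) or ctrl replicate 2 (0.0845), and without a mean trend in the variance (0.475), a setting in which limma called 0 of 12777 genes (1245 at an unadjusted p under 0.05). Without IR replicate 2 the log2 fold change was 0.99 (adjusted p by limma = 0.0225).

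Neutrophils also transcribe Cd14, and their markers are given beside it. All 10 mature neutrophil markers were higher in both IR libraries than in every ctrl library, as were 15.2% of all genes. By limma 4 rose (1.14% of all genes did), 0 fell and 6 did not pass. The 4 were Csf3r, Cxcr2, Retnlg and Trem1, with log2 fold changes from 1.28 to 1.66 and adjusted p by limma from 0.0152 to 0.0250. Of the 5 runs that left out 1 library, Csf3r, the receptor for the neutrophil growth factor G-CSF, passed in 2, as did Retnlg and Trem1, and Cxcr2, a chemokine receptor of neutrophils, in 4. The summed scaled counts of the 10 markers were 28886, 38369 and 51481 in ctrl replicates 1 to 3 and 70235 and 135247 in IR replicates 1 and 2, the same order of libraries as for Cd14, and none was at 0 in any library. Ly6g, the defining surface marker of mouse neutrophils, lay between 5.9 and 17.3 in ctrl and at 50.5 and 79.8 in IR. The part of neutrophils in the Cd14 difference was not tested. The 3 genes whose values over the 5 libraries were most like those of Cd14, among 11859 named genes compared, were Slfn1, a schlafen family gene (root mean square difference 0.058 on the log2 scale), Grina, a transmembrane protein gene (0.076), and Stfa2l1, a stefin-like gene (0.079). Slfn1 and Grina rose with log2 fold changes of 1.33 and 1.38 (adjusted p by limma = 0.00695 and 0.0224; both passed in 2 of 5 runs that left out 1 library), and Stfa2l1 had 1.39 (0.0526). The likeness rests on 5 libraries, which are those of the comparison itself.

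The partners of Cd14 in lipopolysaccharide sensing did not pass. Of 11 genes of that pathway 0 rose and 0 fell by limma, 3 had an unadjusted p under 0.05, and the median log2 fold change was 0.49. Tlr4 itself, named here after its values were seen, was 209, 164 and 166 in ctrl and 303 and 323 in IR. The groups did not overlap, with a log2 fold change of 0.80 ± 0.36 (SE; adjusted p by limma = 0.296). Non-overlap in either direction was found for 31.5% of all genes, and IR above ctrl for 15.2%.

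Ly6c2, a glycosylphosphatidylinositol-anchored surface protein, was 661, 432 and 611 in ctrl and 552 and 642 in IR. Both IR values lay within the ctrl range. The log2 fold change was 0.09 ± 0.27 (SE; adjusted p by limma = 0.907, 95% interval -0.46 to 0.64), and its sign turned after scaling to equal totals (-0.029). Ccr2, the chemokine receptor that lets classical monocytes leave the marrow, was 1337, 968 and 893 in ctrl and 1369 and 1249 in IR, with a log2 fold change of 0.32 (adjusted p by limma = 0.542).

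Lyz2 was 27650.5, 23865 and 24499 in ctrl and 27250.5 and 22258 in IR. It had the smallest relative spread between ctrl libraries of the 10 genes, 8.0% of the mean. Its log2 fold change was -0.04 ± 0.17 (SE; adjusted p by limma = 0.942), with a 95% interval from -0.39 to 0.31 that takes in neither a 2-fold rise nor a 2-fold fall.

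F13a1, Vcan and Fn1 encode proteins that monocytes and macrophages add to clots and matrix: the A subunit of coagulation factor XIII, the proteoglycan versican, and fibronectin. F13a1 (chromosome 13, 36867178 to 37050244) was 2045, 2285 and 874 in ctrl and 2572 and 1705 in IR. Vcan (chromosome 13, 89655312 to 89742509) was 391, 702 and 129 in ctrl and 653 and 905 in IR. Fn1 (chromosome 1, 71585520 to 71653200) was 12903, 12807 and 8690.5 in ctrl and 15271 and 13066 in IR. Each of these 3 was lowest in ctrl replicate 3, the library with the lowest value for 10.6% of all genes, whereas the other 3 classical genes were not.

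The ctrl libraries themselves differed widely for these genes. Between the lowest and highest ctrl library Vcan differed 5.43-fold, F13a1 2.61-fold and Fn1 1.48-fold. Vcan had a log2 fold change of 1.22 ± 0.71 (SE; adjusted p by limma = 0.496), near that of Cd14, with a 95% interval from -0.53 to 2.98. Without ctrl replicate 3 it was 0.55 and without ctrl replicate 2 1.77 (adjusted p by limma = 0.560 and 0.124). F13a1 had 0.39 ± 0.39 (adjusted p by limma = 0.697), and -0.046 without ctrl replicate 3. Fn1 had 0.32 ± 0.19 (adjusted p by limma = 0.439); both IR libraries were above ctrl.

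Markers of other cells were measured beside these 3 genes. Fibroblast markers, of which Dcn, Lum and Inmt had no row and the 5 others were each at 0 in at least 1 library, summed to between 0 and 28.3 in ctrl and to 0.9 and 64.6 in IR. Of 7 platelet markers 3 had a row, with sums of 71.2 to 154 in ctrl and 48.5 and 24.3 in IR, and Ppbp was at 0 in at least 1 library. Interstitial macrophage markers summed to 3680 to 5108 in ctrl and 3343 and 2459 in IR. Most of each sum was Apoe, at 3582 to 4931 in ctrl and 3311 and 2242 in IR. C1qa, C1qb, Lyve1, Ms4a7 and Pf4 were at 0 in at least 1 library, and Folr2 had no row. The 10 alveolar macrophage markers summed to 7215, 7328 and 7732 in ctrl and to 4662 and 6322.5 in IR. The 5 erythroid markers summed to 4829, 2385 and 14971 in ctrl replicates 1 to 3 and to 5191.5 and 9450 in IR. Ctrl replicate 3, lowest for F13a1, Vcan and Fn1, was the highest of ctrl in the platelet, alveolar macrophage and erythroid sums. It was the lowest of all libraries in the epithelial sum. Its platelet sum was highest through Clec1b (107, against 29.6 and 24.6 in ctrl replicates 1 and 2), while Itga2b was lowest of ctrl there (43.8). Of the 10 epithelial markers 5 were lowest in ctrl replicate 3 and 7 highest in IR replicate 1, none was at 0, and 1 rose, 0 fell and 9 did not pass. The gene that rose was Scgb1a1 (log2 fold change 1.84, adjusted p by limma = 0.00306; it passed in 5 of 5 runs that left out 1 library, and not with equal totals or without a mean trend). The part of these cells in the values of F13a1, Vcan and Fn1 was not tested.

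**Figure D2:**
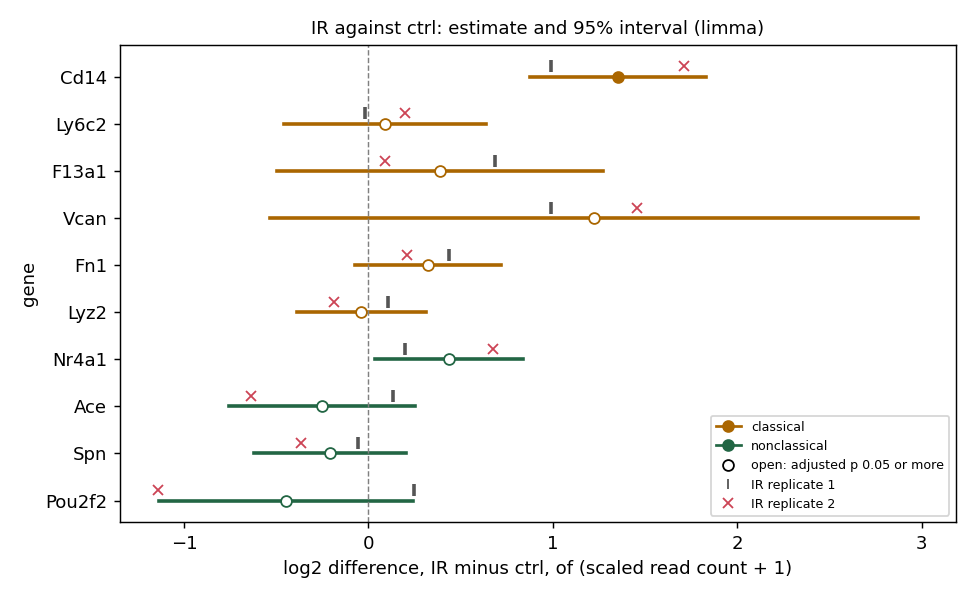
Log2 difference of IR minus ctrl (x axis, of scaled count + 1) for each gene (y axis): circles are limma estimates (filled where adjusted p is under 0.05), lines 95% intervals, and the marks above them the 2 IR libraries against the ctrl mean. The Cd14 circle alone is filled, and the IR libraries lie on either side of 0 for Ly6c2, Lyz2, Ace and Pou2f2.

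Among the nonclassical genes Nr4a1 went the other way from the rest. Its scaled counts were 6258, 5241 and 6924 in ctrl and 7003 and 9765 in IR. Both IR libraries were above ctrl, IR replicate 1 by little. The means were 6141 ± 848 (SD, n = 3) and 8384 ± 1953 (SD, n = 2), and the log2 fold change of 0.44 ± 0.19 (SE) did not pass (adjusted p by limma = 0.290). Without IR replicate 1 it was 0.68 and passed (adjusted p by limma = 0.0481); without IR replicate 2 it was 0.20 (0.811).

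Nr4a1 belongs to the immediate early genes. Of 10 others listed, 2 rose, 0 fell and 8 did not pass, and 7 were higher in both IR libraries than in every ctrl library, as were 15.2% of all genes; Fos, Jun and Btg2 overlapped ctrl. Their summed scaled counts were 72601 to 82608 in ctrl and 88159 and 125578 in IR, and none was at 0. The genes that rose were Ier3 and Egr1 (log2 fold changes 1.46 and 0.76, adjusted p by limma = 0.00151 and 0.0391); of the 5 runs with 1 library left out, Ier3 passed in 5, and Egr1 in 1, that without IR replicate 1. Whether the Nr4a1 values came from monocytes was not tested. The relatives of Nr4a1 lay apart: Nr4a2 was between 1018 and 1268 in ctrl and at 782 and 1064 in IR, and Nr4a3 between 4506 and 5959 in ctrl and at 4558 and 7984 in IR (log2 fold changes -0.30 and 0.20, adjusted p by limma = 0.576 and 0.708).

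Ace, Spn and Pou2f2 were each highest in ctrl replicate 1 and lowest in IR replicate 2. Ace (chromosome 11, 105967945 to 105989964, plus strand), the angiotensin-converting enzyme, was 2715, 1778 and 1751 in ctrl and 2233 and 1310 in IR. Spn (chromosome 7, 127132232 to 127137823, minus strand), which encodes the sialophorin CD43, was 4186, 3045 and 3351 in ctrl and 3365 and 2716 in IR. Pou2f2 (chromosome 7, 25087344 to 25179726, minus strand), the octamer-binding factor Oct-2, was 690.5, 548 and 510 in ctrl and 685 and 261 in IR. In all 3, IR replicate 1 lay within the ctrl range.

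None of the 3 passed. The log2 fold changes were -0.25 ± 0.24 for Ace, -0.21 ± 0.20 for Spn and -0.45 ± 0.33 for Pou2f2 (SE; adjusted p by limma = 0.675, 0.669 and 0.562). Their 95% intervals ran from -0.76 to 0.25, from -0.62 to 0.20 and from -1.14 to 0.24. Without IR replicate 1, Pou2f2 had -1.14 and passed (adjusted p by limma = 0.0309), and Ace had -0.64 (0.152). Without IR replicate 2 the signs of Ace (0.13) and Pou2f2 (0.25) turned.

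Markers of other cells that express these 3 genes were measured beside them. The 10 T cell markers summed to 7585 to 8659 in ctrl and 5325 and 4385 in IR, and 2 fell (Cd3g, which signals for the antigen receptor, and Lef1, a factor of naive T cells), 0 rose and 8 did not pass. The 8 B cell markers summed to 10099, 6438 and 10883 in ctrl and 6283 and 4903 in IR, and 1 fell (Ebf1, a factor of B cell identity), 0 rose and 7 did not pass. Cd3g, Lef1 and Ebf1 had log2 fold changes of -1.21, -1.34 and -1.11 (adjusted p by limma = 0.0250, 0.00554 and 0.0152). Of the 5 runs that left out 1 library they passed in 1, 2 and 3, and none of the 3 passed without ctrl replicate 1 or without a mean trend. None of these 18 markers was at 0, and 0.360% of all genes were called lower. Of 10 endothelial markers 7 had a row, with Tek, Egfl7 and Tie1 at 0 in at least 1 library. The 7 summed to 732 to 1049 in ctrl and to 896 and 737 in IR, and most of each sum was Pecam1. Kdr was higher in both IR libraries (263 and 106, against 30.4 to 63.0 in ctrl). Cdh5 was lower in both (24.3 and 33.6, against 37.1 to 84.9 in ctrl), and neither passed. The part of T, B and endothelial cells in the values of Spn, Pou2f2 and Ace was not tested.

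**Figure D3:**
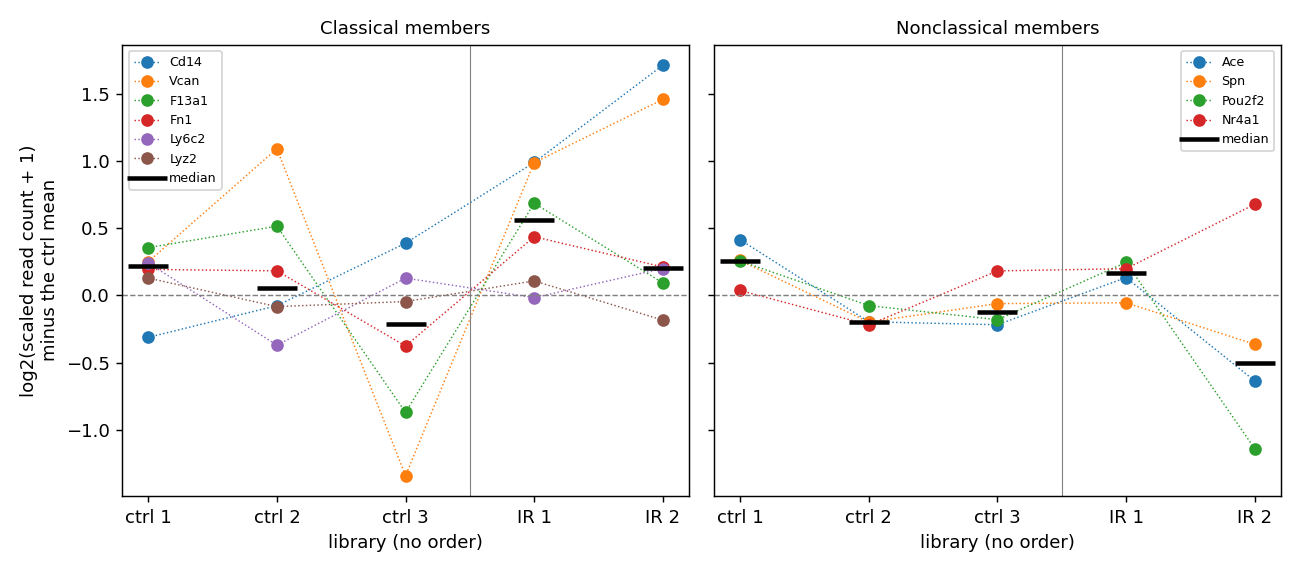
Log2(scaled count + 1) of each gene minus its ctrl mean (y axis) in the 5 libraries (x axis), for classical (left) and nonclassical genes (right); black bars are medians and dotted lines only join points of a gene. In ctrl replicate 3 Vcan and F13a1 lie at -1.34 and -0.87, and in IR replicate 2 Pou2f2, Ace and Spn lie at -1.14, -0.64 and -0.36 while Nr4a1 lies at 0.68.

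The median of the classical genes lay above that of the nonclassical genes in both IR libraries, while single genes crossed. In IR replicate 2 Nr4a1 lay above 4 of the 6 classical genes (Ly6c2, F13a1, Fn1 and Lyz2). In IR replicate 1 Nr4a1, Ace and Pou2f2 lay above Ly6c2 and Lyz2. Relative to the ctrl mean of each gene, the classical median was 0.22, 0.05 and -0.21 in ctrl replicates 1 to 3 and 0.56 and 0.21 in IR replicates 1 and 2 on the log2 scale. The nonclassical median was 0.26, -0.20 and -0.12 in ctrl and 0.17 and -0.50 in IR. The classical minus nonclassical difference was thus -0.04, 0.25 and -0.09 in ctrl and 0.40 and 0.71 in IR. In IR replicate 1 it came with a raised classical median, and in IR replicate 2 with a lowered nonclassical one. Between the groups the difference of the median log2 fold changes was 0.59; it ranged from 0.40 without IR replicate 2 to 0.86 without ctrl replicate 2, and the nonclassical median turned to 0.17 without IR replicate 2. These medians over 6 and 4 genes are descriptions and were given no test.

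Further genes of each subset were counted from 2 lists, beside shares of 1.14% called higher and 0.360% called lower among all genes. Of 14 other classical genes, 2 rose, 0 fell and 12 did not pass; 12 had positive log2 fold changes and the median was 0.29. Those that rose were Hp, the haemoglobin scavenger haptoglobin, from 2832 ± 284 (SD, n = 3) to 6475 ± 533 (SD, n = 2), and Mgst1, a membrane-bound glutathione transferase, from 433 ± 59.0 to 1174 ± 109. Both are also transcribed in neutrophils. Their log2 fold changes were 1.19 and 1.44 (adjusted p by limma = 0.00151 and 0.00329); without ctrl replicate 1 Hp did not pass (0.0524), and without a mean trend neither did.

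Of 16 other nonclassical genes, 1 rose, 0 fell and 15 did not pass; 11 had negative log2 fold changes and the median was -0.37. The gene that rose, Pglyrp1, which binds bacterial peptidoglycan, is also a neutrophil granule gene with 535 ± 202 scaled counts in ctrl (SD, n = 3) and 1486 ± 492 in IR (SD, n = 2), and its log2 fold change was 1.49 (adjusted p by limma = 0.00886; at most 0.113 with 1 library left out). Cx3cr1, the fractalkine receptor that keeps nonclassical monocytes alive, was 584, 519 and 465 in ctrl and 644 and 273 in IR. Treml4, a receptor of the same cells, was 581.5, 360 and 321 in ctrl and 386 and 238 in IR. Neither passed (adjusted p by limma = 0.689 and 0.586), and both were lowest in IR replicate 2, as were 8 of the 16 genes and 29.3% of all genes.

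**Figure D4:**
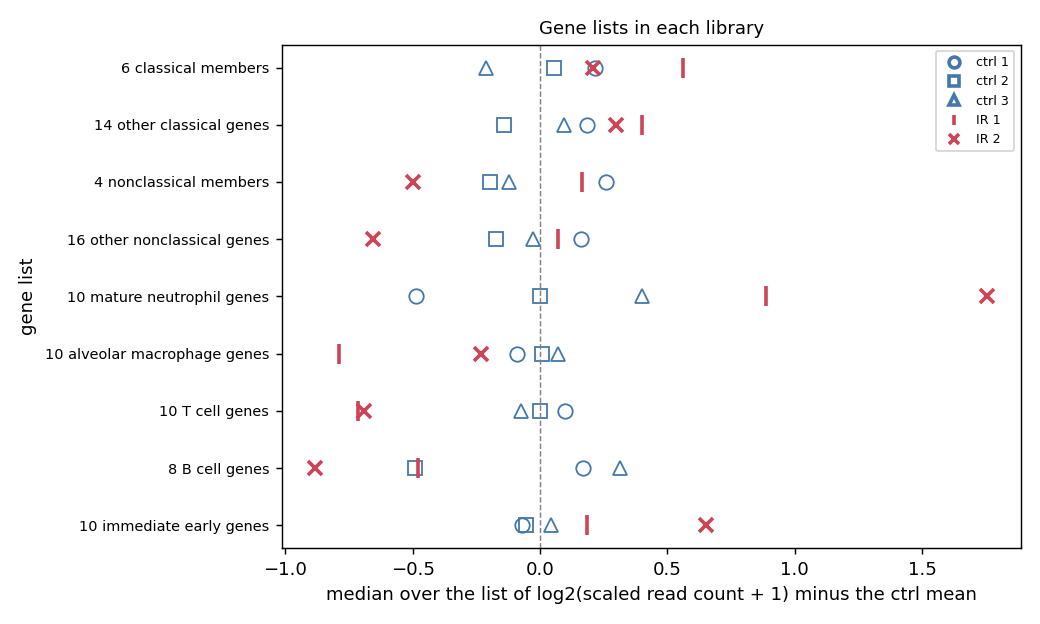
Median over each gene list (y axis) of log2(scaled count + 1) minus the ctrl mean (x axis), one mark per library. The nonclassical lists lie lowest in IR replicate 2 (-0.50 and -0.66) and within or near ctrl in IR replicate 1, whereas mature neutrophil genes lie at 0.89 and 1.75 in the IR libraries.

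Of 14 transcription factors of monocyte development, 3 rose (1.14% of all genes did), 0 fell and 11 did not pass. Their median log2 fold change was 0.01. Spi1, which encodes PU.1, rose from 2865 ± 200 (SD, n = 3) to 5172 ± 1815 (SD, n = 2), and Cebpb, which nonclassical monocytes need to survive, from 14332 ± 1755 to 25633 ± 5556. Cebpd, a related factor, rose from 288 ± 35.3 to 734 ± 365.5. Their log2 fold changes were 0.81, 0.83 and 1.26 (adjusted p by limma = 0.0494, 0.0223 and 0.0429). None of the 3 passed with any 1 ctrl library left out. Without IR replicate 2 the log2 fold changes were 0.44, 0.61 and 0.73. Spi1 did not pass with equal totals (adjusted p by limma = 0.0534), median-ratio size factors (0.0508) or a pseudocount of 0.5 (0.0552). Nor did Spi1 pass with no filter on low values (0.0668) or a filter at a value of 50 (0.0554). With robust estimation off, or without a mean trend, none of the 3 passed. All 3 factors also act in neutrophils, whose 10 markers were higher in both IR libraries; their part was not tested.

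Receptors and ligands that feed or recruit monocytes had positive log2 fold changes in all 8 that were tested, of 10 listed. Among the 8, Il34 was at 0 in every ctrl library and at only 17.8 and 16.8 in IR. By limma 1 rose (1.14% of all genes did), 0 fell and 7 did not pass, with a median of 0.74. The gene that rose was Csf2rb, the shared receptor chain for GM-CSF and related cytokines. It had 1944 ± 415 scaled counts in ctrl (SD, n = 3) and 3749 ± 1376 in IR (SD, n = 2). Its log2 fold change was 0.92 (adjusted p by limma = 0.0460), and 0.53 without IR replicate 2. Csf2rb did not pass with any 1 ctrl library left out (adjusted p by limma up to 0.300). Nor did it pass with median-ratio size factors (0.0506), no filter on low values (0.0600) or a pseudocount of 0.5 (0.0528). Csf1r had a log2 fold change of 0.12 (adjusted p by limma = 0.822). Among 11 adhesion and matrix partners 2 rose, 0 fell and 9 did not pass: Selplg, the selectin ligand on rolling leukocytes (1.03, adjusted p by limma = 0.00600), and Tgfbi, a matrix protein made by monocytes (0.79, 0.0460). Selplg passed in 2 and Tgfbi in 1 of the 5 runs that left out 1 library. The integrin chains Itga4, Itga5 and Itgb1, which bind fibronectin, were among the 9, with log2 fold changes of -0.06, 0.78 and -0.03. So were the other integrin chains listed, Itgav and Itgb3, with -0.53 and -0.06.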

How the data were processed

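Libraries of CD45-sorted lung cells were made with the SMARTer stranded total RNA kit for picogram inputs, per the labels' protocols. HISAT2, HTSeq and mm10 are named without version or role, per the submitters' processing notes; the sources used here do not give the annotation, strand setting, filters or scaling. The deposited table is named for read counts, but its values carry decimals and similar medians per library, so they were read as a signal that the authors scaled between libraries. Whole reads could not be recovered from the steps between low values, so no count test was run and no counting error is given.

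The 12777 genes that reached a value of 10 in 2 or more libraries were fitted as log2(value + 1). The tool was limma 3.58.1, run in R 4.3.3 beside statmod 1.5.0, with mean trend and robust estimation, IR against ctrl, no covariate, Benjamini-Hochberg adjustment over all genes, two-sided. Fold changes on this scale understate low genes. An exact permutation test of 3 against 2 libraries cannot reach p = 0.05 and was not used. Members and lists were chosen with earlier results of these data known. Named genes were the members, the called genes of each list (at most 4), a few defining genes of cell types, relatives of members, and the 3 genes nearest to a called member. Coordinates and exon lengths are from GENCODE vM21 (GRCm38, the assembly of mm10), and promoters from RefSeq (GRCm38.p6). GENCODE exons of Ace, F13a1, Fn1 and Pou2f2 overlap those of a gene with no row in the table by 14 to 267 bases. Alternatives covered scaling, filter, pseudocount, variance model, array weights and each library left out.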

Additional observations from a re-analysis of the deposited data

How the results depend on the processing

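Over 14 alternatives, the 10 members gave 140 log2 fold changes, of which 127 kept direction and side of the threshold. Cd14 stayed higher in all 14 (0.99 to 1.71) and passed in 11 (adjusted p by limma from 0.000344 to 0.475). With each library left out in turn, Ly6c2 ranged from -0.093 (ctrl replicate 2 out) to 0.21, Lyz2 from -0.18 to 0.11 (IR replicate 2 out), F13a1 from -0.046 (ctrl replicate 3 out) to 0.69, Ace from -0.64 to 0.13, Pou2f2 from -1.14 to 0.25, Cx3cr1 from -0.93 to 0.31 and Nr4a3 from -0.20 to 0.61. The signs of Ly6c2 (-0.017), Ace, Pou2f2, Cx3cr1, Nr4a3 and the nonclassical median turned when IR replicate 2 was left out, that of Lyz2 (0.027) also when ctrl replicate 1 was, and that of Ly6c2 with equal totals (-0.029). The causes were not tested.

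The members called ranged from 0 to 3 with a library left out, 3 being Cd14, Nr4a1 and Pou2f2 when IR replicate 1 was out, and were 0 with no mean trend. All genes called were 192; they ranged from 19 (ctrl replicate 1 out) to 1006 (IR replicate 1 out), with 23 when ctrl replicate 2, 95 when ctrl replicate 3 and 96 when IR replicate 2 was out, and were 314 with a pseudocount of 10 and 0 with no mean trend (1245 at an unadjusted p under 0.05). With a library left out the classical median ran from 0.15 to 0.56, the nonclassical median from -0.50 to 0.17 and their difference from 0.40 to 0.86; the difference was 0.78 with array weights. No paired analysis was made because the labels give no pairing. They give no replicate numbers either, and those used here follow the order of the libraries in each group.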

Other observations

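Of the 16 other nonclassical genes, 4 were lower in both IR libraries than in every ctrl library, against 16.3% of all genes tested. Another 2 were higher in both, against 15.2% of all genes. None of the 4 passed the test, and they are named after their values were seen. Ear2, an eosinophil-associated ribonuclease, was 750.5, 555 and 585.5 in ctrl and 313 and 409 in IR (log2 fold change -0.80, limma adjusted p = 0.151). Adgre4, an adhesion receptor of macrophages and monocytes, was 437, 361 and 382.5 in ctrl and 244 and 212 in IR (-0.78, 0.230). Fabp4, a fatty acid-binding protein, was 161, 128 and 70.8 in ctrl and 4.7 and 40.3 in IR (-2.90, 0.0723), and Cd300e, an activating receptor of monocytes, was 156, 84.0 and 94.2 in ctrl and 43.0 and 65.5 in IR (-1.0, 0.428). That IR replicate 1 also lay below ctrl in these 4 genes follows from how they were picked. It therefore does not set them apart from Ace, Spn and Pou2f2, and no difference between genes was tested. Alveolar macrophage markers were lower in IR replicate 1 as well (median -0.79 on the log2 scale).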
